A study of Mus musculus with 7 samples.

Results

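The genes described here are 10 mouse genes of the vessel lining, taken by name from the 27179 genes of a read count table: the receptor genes Tie1, Tek, Kdr, Flt1, Flt4 and Eng, the adhesion genes Cdh5 and Pecam1, and the transcription factor genes Erg and Fli1. They were chosen by name, but the list was drawn up with results of these libraries known, among them the difference in Tie1, so differences between the groups in these genes are a description and support nothing further. The table comes from ChIP-seq, the sequencing of DNA that an antibody, here against the V5 epitope, pulls down with chromatin, on pharyngeal arches 1 and 2 of E10.5 embryos of the strain C57BL/6, when the arches, the future jaws and neck, are crossed by the arch arteries. The V5 group has 3 ChIP libraries of arches in which MOZ (KAT6A), a histone acetyltransferase, carries a Flag-V5-BIO tag at its carboxy-terminus from both copies of its own locus, and such mice are viable and fertile per the series' design text. The wild-type group has 3 ChIP libraries of arches without any tag, made with the same antibody, so its reads are the background of the method. The input is 1 library of tagged arches without antibody. No label says whether replicates came from separate embryos, so p-values measure the spread between libraries, which may be technical.

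Endothelial cells build the inner wall of every vessel. Receptors for VEGF (the products of Kdr, Flt1 and Flt4) drive their growth and sprouting, the TIE receptors (Tie1 and Tek) receive or modulate angiopoietin signals that steady the vessel wall, endoglin (Eng) is a co-receptor for ligands of the BMP and TGF-beta family, and the ETS factors ERG and FLI1 switch on much of the endothelial programme. A read in these data is a fragment of DNA recovered from the gene, not a transcript, so it says nothing of how strongly the gene was expressed or of which cells were present. In whole arches a signal from a few vessel cells and a weak signal from many cells cannot be told apart.

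Library totals ran from 806648 counts in V5 replicate 1 to 3488745 in the input, with 1138431 in V5 replicate 2, 3286602 in V5 replicate 3, 1288732 and 1327452 in wild-type replicates 1 and 2, and 2504595 in wild-type replicate 3. A single count is thus worth 1.24 CPM (reads per 1000000 reads counted in that library) in the shallowest library and 0.287 CPM in the input. The 10 genes together held 871 to 2974 counts per library, or 0.0797% to 0.149% of each total. The chi-square per degree of freedom between libraries of a group, which is about 1 when they differ by counting error alone, had a median of 6.07 over tested genes in V5 and 3.43 in wild type. Over the 10 genes the order was the reverse, with medians of 4.58 in V5 and 6.26 in wild type. All 10 genes had enough counts to be tested.

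The comparison of V5 with wild type asks where the tagged protein gave more reads than the antibody alone. With edgeR's quasi-likelihood model none of the 10 genes, and none of all 14575 tested genes (0%), reached an adjusted p under 0.05. Adjusted p-values of the 10 lay between 0.980 and 0.999. At an unadjusted p under 0.05 there was 1 gene of the 10, Tie1, where 4.12% of all tested genes lay under that value. Of the 10, 5 had a positive and 5 a negative log2 fold change, with a median of 0.029, against 52.0% positive and a median of 0.020 over all tested genes. The CPM values of the groups did not overlap in 2 of the 10 genes (10.1% of tested genes), Tie1 and Tek. Both had the V5 libraries on top (4.83% of tested genes), 0 members had the reverse order (5.27%), and in the other 8 the groups overlapped.

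**Figure D1:**
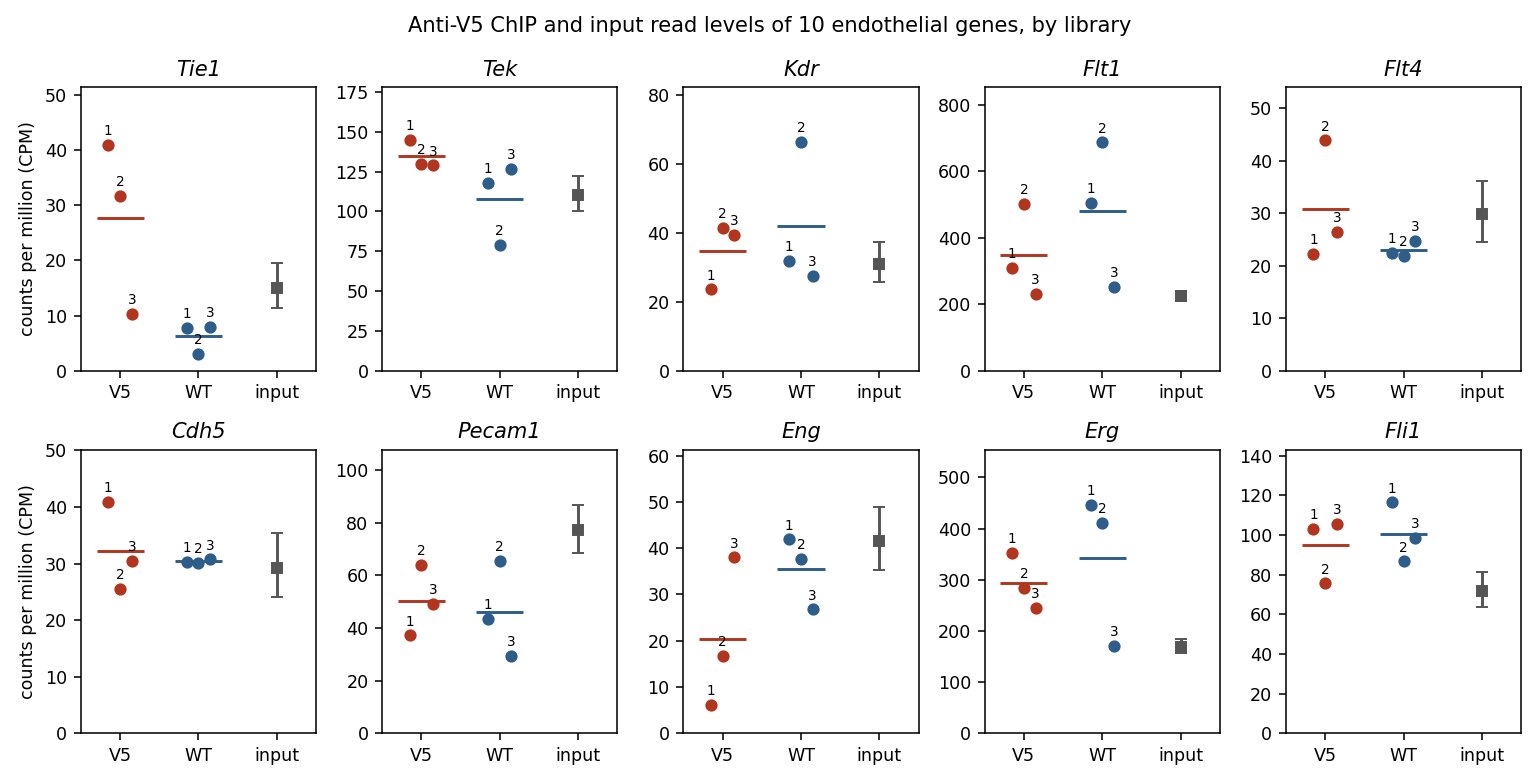
Read level in CPM (vertical axes, linear, from 0) of each of the 10 genes in every library, with V5 ChIP in red, wild-type ChIP in blue, replicate numbers above the points, group means as lines, and the single input as a square with its 95% Wilson interval for counting error. Tie1 and Tek are the genes whose V5 points all lie above the wild-type points, while in Flt1 and Erg the points within a group are spread more widely than the group means differ.

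The receptor genes of the TIE family were the members with every V5 library above every wild-type library. Tie1, an orphan receptor tyrosine kinase that modulates angiopoietin signalling (GeneID 21846, chromosome 4, 118471191 to 118489849 in mm10, the shortest of the 10 genes), gave 33, 36 and 34 reads from V5 replicates 1 to 3. The wild-type libraries gave 10, 4 and 20 reads and the input 52. Scaled to the library totals, these counts were 40.9, 31.6 and 10.3 CPM in V5 and 7.76, 3.01 and 7.99 CPM in wild type. V5 replicates 1 and 2, the shallowest of that group, were high, and replicate 3 stood just above the highest wild-type library. The means were 27.6 ± 15.7 CPM in V5 and 6.25 ± 2.81 CPM in wild type (SD, n = 3). The difference was 2.13 ± 0.71 on the log2 scale (fitted value and SE), with an edgeR adjusted p of 0.980. Leaving out single libraries gave 1.67 (without V5 replicate 1) to 2.56 (without V5 replicate 3), always in the same direction, and limma-voom gave 1.34 ± 0.77 (SE; adjusted p = 1.00). The input had 14.9 CPM (95% Wilson interval 11.4 to 19.5, counting error only). It was higher than all 3 wild-type libraries and also than V5 replicate 3, so the wild-type mean was 0.420 times and the V5 mean 1.85 times the input.

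Tek encodes TIE2, the receptor of the angiopoietins (GeneID 21687, chromosome 4, 94739086 to 94874976). It had 145, 130.0 and 129 CPM in V5, 118, 79.1 and 127 CPM in wild type, and 111 CPM in the input (Wilson interval 100.1 to 122). The V5 libraries were close to each other, with a chi-square per degree of freedom of 0.648, and the highest wild-type library stood just below the lowest V5 library. With means of 135 ± 8.99 and 108 ± 25.4 CPM (SD, n = 3), the fitted log2 difference was 0.34 ± 0.25 (SE), with an edgeR adjusted p of 0.980. Wild-type replicate 2 was the low library here, as in Tie1, and without it the value was 0.16.

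The promoter windows of both TIE receptor genes are shown because these are the members whose V5 libraries all exceeded the wild-type libraries, and that of Flt1 because its chi-square between libraries was the highest of the 10 genes in both groups. They are RefSeq windows in GRCm38.p6 (the assembly of mm10), from 250 bases before to 50 bases after an annotated start, and 7 of the 10 genes have one (Tie1, Tek, Kdr, Flt1, Flt4, Eng and Erg). Capitals mark GGAA, the core that ETS factors such as ERG and FLI1 recognise, read on both strands, so that TTCC is the same core on the other strand. The Tie1 window is chr4:118489800-118490099 on the minus strand, the Tek window chr4:94739039-94739338 on the plus strand and the Flt1 window chr5:147725962-147726261 on the minus strand.
Tie1: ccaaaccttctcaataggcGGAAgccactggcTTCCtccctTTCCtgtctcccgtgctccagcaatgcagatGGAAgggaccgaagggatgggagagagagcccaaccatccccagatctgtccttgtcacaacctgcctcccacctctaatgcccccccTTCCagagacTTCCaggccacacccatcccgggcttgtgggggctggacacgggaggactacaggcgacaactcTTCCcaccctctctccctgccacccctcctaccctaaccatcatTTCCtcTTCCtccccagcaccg
Tek: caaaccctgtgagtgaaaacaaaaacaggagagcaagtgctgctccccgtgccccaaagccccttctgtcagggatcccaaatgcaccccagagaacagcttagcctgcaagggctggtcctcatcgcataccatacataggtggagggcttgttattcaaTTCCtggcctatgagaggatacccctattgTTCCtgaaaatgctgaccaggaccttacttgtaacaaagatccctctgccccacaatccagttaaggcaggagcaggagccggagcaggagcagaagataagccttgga
Flt1: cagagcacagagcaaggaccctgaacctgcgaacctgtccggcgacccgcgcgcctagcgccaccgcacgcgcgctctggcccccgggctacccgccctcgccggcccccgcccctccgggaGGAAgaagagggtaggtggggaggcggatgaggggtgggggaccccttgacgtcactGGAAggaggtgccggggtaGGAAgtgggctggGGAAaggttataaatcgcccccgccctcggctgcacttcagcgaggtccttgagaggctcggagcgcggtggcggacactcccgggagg
The Tie1 window held 9 such cores, a number that 1.59% of all 32851 RefSeq windows reached. Tek held 2 (reached by 84.6%) and Flt1 held 4 (46.3%). Among the windows not shown, Kdr held 5 (28.6%), Eng 4 (46.3%) and Flt4 2 (84.6%). The Erg windows held 1, 4 and 2 (96.0%, 46.3% and 84.6%). Whether the number of cores bears on the reads of Tie1 was not tested. At least 1 core was present in 96.0% of all windows, with a median of 3, so the core by itself is common. The longer form CCGGAA, which contains the core, was found in 1 of the 9 member windows, that of Kdr, and in 14.9% of all windows. In content of the dinucleotide CG the Tie1 window (7) stood at the median of all windows (7), Tek had 3 and Flt1 had 29, more than 87.1% of windows. The window of Tie1 shares 50 bases with the RefSeq span of the gene, so reads lying wholly in the 250 bases before its start did not enter its count. The window of Tek shares 253 bases with its span, and that of Flt1 lies inside the span with all 300 bases. A match of these letters is a description of the sequence and shows no bound factor.

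The 3 VEGF receptor genes showed no shared direction. Kdr, which encodes VEGFR2, the main signalling receptor for VEGF-A (chromosome 5, 75932827 to 75979072), had 23.6, 41.3 and 39.3 CPM in V5, 31.8, 66.3 and 27.5 CPM in wild type and 31.0 CPM in the input. V5 replicate 1 was the lowest library and wild-type replicate 2 the highest, and the other 4 ChIP values lay between 27.5 and 41.3 CPM. Its fitted log2 difference of -0.23 ± 0.44 (SE; edgeR adjusted p = 0.992) turned to 0.25 without wild-type replicate 2. Flt4, which encodes VEGFR3, the receptor of lymphatic and early blood vessels (chromosome 11, 49609679 to 49652739), had 22.3, 43.9 and 26.5 CPM in V5 and 22.5, 21.8 and 24.8 CPM in wild type, with 29.8 CPM in the input. The wild-type libraries were nearly equal, and 1 library, V5 replicate 2, was high. The fitted difference was 0.44 ± 0.49 (log2, SE; edgeR adjusted p = 0.984), and 0.12 without that library.

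Flt1 encodes VEGFR1, which binds VEGF-A tightly and acts largely as a decoy (GeneID 14254, chromosome 5, 147561604 to 147726438). V5 libraries gave 249, 572 and 760 reads, wild-type libraries 651, 912 and 633, and the input 785. That is 309, 502 and 231 CPM in V5 and 505, 687 and 253 CPM in wild type, against 225 CPM in the input (Wilson interval 210 to 241). The high libraries were V5 replicate 2 and wild-type replicates 1 and 2, and the low ones were replicate 3 of each group, so both groups held high and low libraries. The means of 347 ± 140 and 482 ± 218 CPM (SD, n = 3) overlapped widely, with a fitted log2 difference of -0.45 ± 0.48 (SE; edgeR adjusted p = 0.984) that ranged from -0.80 to -0.11 as single libraries were left out.

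**Figure D2:**
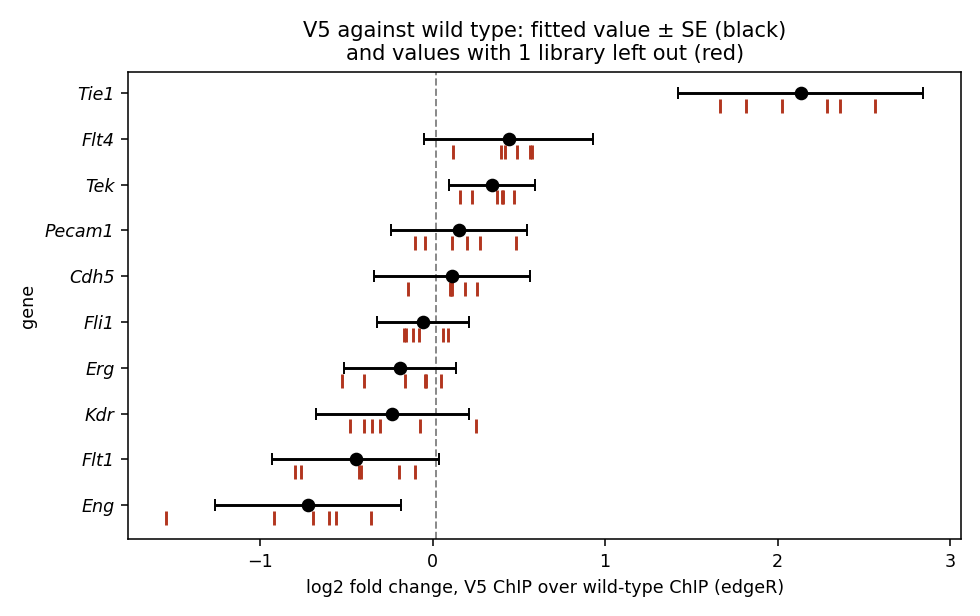
Log2 fold change of V5 over wild-type ChIP (horizontal axis) for each gene, with the edgeR value and its SE in black, the 6 values with 1 library left out as red ticks, and the median of all tested genes (0.020) as a dashed line. Tie1 stands apart at 2.13, and the other 9 genes lie between -0.72 and 0.44 on both sides of the line.

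Eng, the endoglin gene (GeneID 13805, chromosome 2, 32646595 to 32682669), had the most negative value. V5 libraries gave 5, 19 and 125 reads, wild-type libraries 54, 50 and 67, and the input 145, or 6.20, 16.7 and 38.0 CPM, 41.9, 37.7 and 26.8 CPM, and 41.6 CPM. V5 replicates 1 and 2 were below every other library, whereas V5 replicate 3 lay inside the wild-type range. On the log2 scale the fitted difference was -0.72 ± 0.54 (SE; edgeR adjusted p = 0.980), -1.54 without V5 replicate 3 and -0.36 without V5 replicate 1. These are the same V5 libraries in which Tie1 was high, and over the 7 libraries the log2 levels of Eng and Tie1 had a Pearson correlation of -0.78, given as a description of libraries that differ in depth.

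The adhesion genes of the endothelial junction overlapped between the groups. Cdh5, which encodes VE-cadherin, the adherens junction protein of the endothelium (chromosome 8, 104101613 to 104144504), had 40.9, 25.5 and 30.4 CPM in V5 and 30.3, 30.1 and 30.7 CPM in wild type, with 29.2 CPM in the input. The wild-type libraries differed by less than counting error usually gives (chi-square per degree of freedom 0.00646), and V5 replicate 1 was the high one. Its fitted log2 difference of 0.11 ± 0.45 (SE; edgeR adjusted p = 0.997) was -0.14 without that library. Pecam1, which encodes the junction protein PECAM1 or CD31 (chromosome 11, 106654213 to 106715281), had 37.2, 64.1 and 49.3 CPM in V5 and 43.5, 65.5 and 29.5 CPM in wild type. All 6 ChIP libraries lay below its input of 77.1 CPM (Wilson interval 68.4 to 86.9), an order found in 14.9% of tested genes. The fitted difference was 0.15 ± 0.40 (log2, SE; edgeR adjusted p = 0.993), and it turned to -0.042 when V5 replicate 2 was left out and to -0.10 when wild-type replicate 3 was.

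Both ETS factor genes had a higher level in CPM in all 6 ChIP libraries than in the input. However, Erg in wild-type replicate 3 lay within the counting error of the input. So did Fli1 in V5 replicate 2, at 75.5 CPM against an input Wilson interval of 63.6 to 81.4. Erg, a factor that maintains endothelial identity (GeneID 13876, chromosome 16, 95359169 to 95586600), gave 284, 324 and 806 reads with the tag, 576, 546 and 429 without it, and 591 from the input. As CPM these were 352, 285 and 245 in V5 and 447, 411 and 171 in wild type. The input had 169 CPM (Wilson interval 156 to 184). Wild-type replicates 1 and 2 were the highest of all libraries and wild-type replicate 3 was level with the input, so the wild-type group spanned the whole V5 range. The fitted difference was -0.19 ± 0.32 (log2, SE; edgeR adjusted p = 0.988) and became 0.047 without wild-type replicate 1. Fli1, an ETS factor of endothelial and blood cells (chromosome 9, 32422204 to 32543432), varied less, with 103, 75.5 and 106 CPM in V5, 116, 86.6 and 98.6 CPM in wild type and 71.9 CPM in the input. Its fitted log2 difference of -0.055 ± 0.27 (SE; edgeR adjusted p = 0.999) changed sign when V5 replicate 2 (0.088) or wild-type replicate 1 (0.058) was left out.

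Set against the input, 3 of the 10 genes (Flt1, Erg and Fli1) were above it in all 6 ChIP libraries, an order found in 13.0% of tested genes. Some of these values lay within the counting error of the input. They were Flt1 in V5 replicate 3, Erg in wild-type replicate 3 and Fli1 in V5 replicate 2. All 3 V5 libraries were above the input in 4 members (21.3% of tested genes), Tek being the fourth, and all 3 wild-type libraries were above it in 4 (27.2%), the fourth being Cdh5. All 3 V5 libraries were below the input in Pecam1 and Eng (23.5%), and all 3 wild-type libraries were below it in Pecam1, Tie1 and Flt4 (27.7%). The median log2 ratio over the 10 genes was 0.23 in V5 and 0.016 in wild type, against 0.064 and 0.038 over all tested genes. Both ratios share the same single input, so no test was made.

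**Figure D3:**
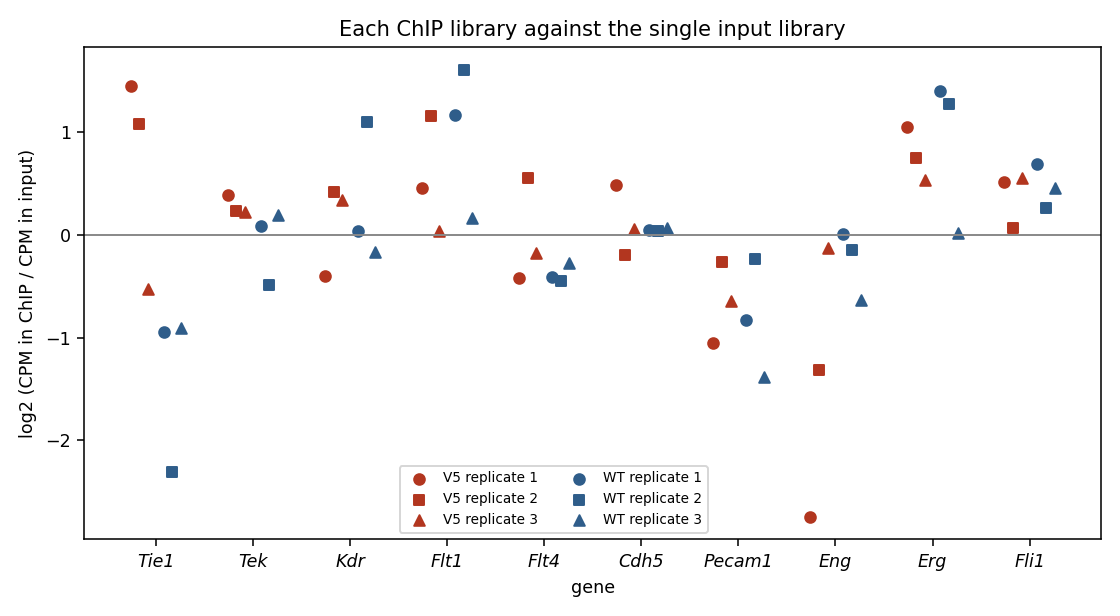
Log2 ratio of each ChIP library's CPM to the input CPM (vertical axis) for each gene, V5 in red and wild type in blue, with a marker for each replicate and 0 where ChIP equals input. Flt1, Erg and Fli1 lie above 0 in all 6 libraries and Pecam1 below 0 in all 6, whereas in Tie1 V5 replicates 1 and 2 lie above 0 and the other 4 libraries below.

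The excess of Flt1 and Erg over the input differed widely between libraries. For Flt1 the ratio to the input was 1.37, 2.23 and 1.03 in V5 replicates 1 to 3 and 2.25, 3.05 and 1.12 in the wild-type replicates. Erg stood at 2.08, 1.68 and 1.45 in V5 and at 2.64, 2.43 and 1.01 in wild type. In both genes the highest ratios were those of wild-type libraries, which carry no tag. Chi-square per degree of freedom between wild-type libraries was 202 for Flt1 and 142 for Erg, against medians of 4.71 and 4.61 over genes whose ChIP counts were from 0.5 to 2 times theirs. That was higher than in 99.7% of 867 such genes for Flt1 and in 99.6% of 1228 for Erg. Between V5 libraries it was 103 for Flt1 (98.7% of those genes were lower) and 14.2 for Erg (71.4%). The libraries with the highest Flt1 and Erg levels had totals of at most 1327452 counts and the deeper ones were closer to the input, although V5 replicate 1, the shallowest, was not the highest for either gene. Whether depth plays a part was not tested.

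Per length, Flt1 and Erg were also the densest of the 10 genes. Over the 6 ChIP libraries Flt1 had 2.53 ± 1.10 CPM per kb of deposited length and Erg 1.87 ± 0.613 (SD over 6 libraries). After them, in this order, stood Tie1 at 0.908 ± 0.828, Tek at 0.895 ± 0.166, Kdr at 0.848 ± 0.338, Fli1 at 0.819 ± 0.122, Pecam1 at 0.789 ± 0.237, Eng at 0.773 ± 0.390, Cdh5 at 0.731 ± 0.119 and Flt4 at 0.626 ± 0.197. Neighbours in this order differed by less than the larger of their SDs, except Erg and Tie1. The place of Tie1 in this order depended on the group: it was the third at 1.48 ± 0.840 CPM per kb in V5 and the last at 0.335 ± 0.15 in wild type (SD, n = 3). In V5 replicate 1 its density of 2.19 exceeded those of Erg (2.07) and Flt1 (1.88). Eng moved the other way, from the third place in wild type to the last in V5. In the input the order was another one, with Flt1 at 1.37, Pecam1 at 1.26, Eng at 1.15 and Erg at 0.996 CPM per kb, and the tested genes had a median of 0.911. Erg is the member whose length is least certain, since its deposited length covers 74.8% of its RefSeq span, against at least 97.7% in the other 9.

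**Figure D4:**
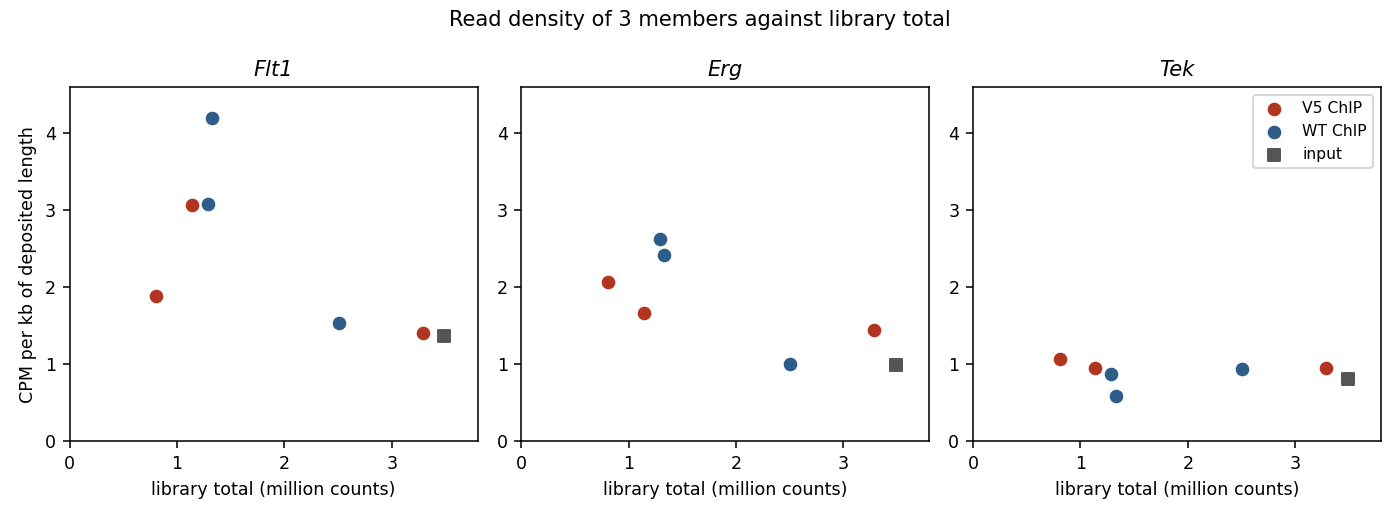
CPM per kb of deposited gene length (vertical axes, from 0) against the library total, for Flt1, Erg and Tek, with V5 ChIP in red, wild-type ChIP in blue and the input as a grey square. Flt1 and Erg reach 4.19 and 2.63 CPM per kb in the wild-type libraries of 1327452 and 1288732 counts, respectively, and are near the input in wild-type replicate 3, while Tek stays between 0.583 and 1.07 in every library.

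Because of these genes the sum over the 10 was not a steady measure. It was 1079.8, 1216 and 905 CPM in V5, 1364, 1489 and 797 CPM in wild type and 801 CPM in the input, with means of 1067 ± 156 and 1217 ± 369 CPM (SD, n = 3) and a V5 to wild-type ratio of 0.877. Flt1 and Erg made up 52.7% to 73.8% of the sum in the ChIP libraries. Without them, a choice made after their values were seen, the sum was 419, 429 and 428 CPM in V5 and 412, 390.2 and 373 CPM in wild type, with 406 CPM in the input and a ratio of 1.09. The V5 sums of these 8 genes lay above the wild-type sums, and this order rested on Tie1 and Tek. Without these as well, the 6 remaining genes summed to 233, 267 and 289 CPM in V5 and 286, 308 and 238 CPM in wild type, with 281 CPM in the input. These groups overlapped, with a V5 to wild-type ratio of 0.948. Flt1 and Erg had higher means in wild type than in V5. Tie1 and Tek were the members with all V5 libraries above all wild-type libraries. Leaving them out thus favoured the order and then its loss, and neither says anything about the remaining genes.

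Among themselves the 10 genes did not rise and fall together. Over the 7 libraries, 20 of the 45 pairs had a positive Pearson correlation of log2(CPM + 1), with a median of -0.050. The highest values were 0.80 for Flt1 with Erg and 0.79 for Tie1 with Tek, and the lowest was -0.81 for Tek with Kdr. Over the 6 ChIP libraries alone the order was another one, with Kdr with Pecam1 highest (0.85, against 0.60 with the input), then Tie1 with Tek (0.81) and Flt1 with Erg (0.74), and with Tek with Kdr and Tie1 with Eng lowest (both -0.86). All pairs share the same libraries and depths. Of 13657 other tested genes with a level of at least 0.5 times that of Tie1, the 3 whose pattern was most like Tie1 over the 7 libraries were Insrr (r = 0.98), Cops4 (0.98) and Crocc (0.98). Insrr, a receptor tyrosine kinase related to the insulin receptor, had 36.0, 30.7 and 14.0 CPM in V5, 13.2, 8.29 and 13.6 CPM in wild type and 15.5 CPM in the input, the same order of high and low groups as Tie1. Searching so many genes over 7 libraries yields high values readily, and no test was made.

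Other genes of the vessel wall were read from lists drawn up by function. Of 17 genes for vascular ligands 9 could be tested, 4 of them with a positive log2 fold change and a median of -0.0046. Angpt1, which encodes the activating ligand of TIE2, had 231 ± 34.7 CPM in V5 and 279 ± 30.4 CPM in wild type (SD, n = 3), and Vegfc, a ligand of VEGFR3, had 95.5 ± 41.4 and 114 ± 18.9 CPM. Angpt2, the context-dependent TIE2 ligand, had 0 counts in all 7 libraries, which allows up to 3.72 CPM in V5 replicate 1 and 0.860 CPM in the input from counting error. It lies inside another gene of the table, Mcph1, and the counting options are not given. Whether reads there were assigned to Angpt2 is therefore unknown, so neither its 0 nor that limit is read as bearing on binding. Of 18 other vascular receptor genes 13 were tested, 7 with a positive value and a median of 0.063, and Bmpr2, a type II BMP receptor gene, had 134 ± 7.72 and 147 ± 4.41 CPM. Of 22 other adhesion and surface genes 15 were tested, 9 with a positive value and a median of 0.029, and Stab2, a scavenger receptor gene of sinusoidal endothelium, had 147 ± 13.4 and 143 ± 27.4 CPM. The list of 24 other endothelial transcription factor genes had 16 tested. Of these, 13 had a positive value, with a median of 0.27, where 52.0% of all tested genes were positive. Etv6, a repressor of the ETS family, had 206 ± 19.6 and 193 ± 27.3 CPM. No gene of these lists was called in either direction by edgeR. Log2 fold changes ran from -0.32 to 1.41 in the ligands and from -0.51 to 1.46 in the other receptors. They ran from -1.12 to 1.30 in the adhesion genes and from -0.15 to 2.07 in the transcription factors, against 2.13 for Tie1. All V5 libraries lay above all wild-type libraries in 1 ligand, 1 receptor and 1 transcription factor gene (4.83% of tested genes). The reverse order was found in 1 receptor gene (5.27%).

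Genes that mark the neighbours of endothelial cells were set beside them. Of 11 genes of mural cells, the pericytes and smooth muscle cells that surround vessels, 8 were tested. All 8 had a positive value, the median being 0.27 and the lowest 0.068. Over all tested genes 52.0% were positive and the median was 0.020. The summed level of the mural genes was 354 to 559 CPM in V5 and 371 to 455 CPM in wild type. The groups thus overlapped, with 313 CPM in the input. Abcc9, a potassium channel subunit gene of pericytes, repeated the library pattern of Erg in part, with 248, 263 and 141 CPM in V5, 230 and 242 CPM in wild-type replicates 1 and 2, 132 CPM in wild-type replicate 3 and 97.5 CPM in the input. Blood cell genes had 15 members in the table, of which 7 were tested and 5 had a positive value (median 0.11), at 365 to 514 CPM in V5 and 393 to 449 CPM in wild type. The globin genes Hba-a1, Hbb-bs and Hbb-bh1 had 0 counts in every library; Hba-a1 and Hbb-bs have near-identical copies, so how their reads were assigned is uncertain, and the zeros were not examined further. Of 12 genes of arch epithelium and mesenchyme 7 were tested and 6 had a positive value (median 0.24), with sums of 448 to 517 CPM in V5 and 424 to 450 CPM in wild type. None was called by edgeR, and the part of other cell types in the values of the 10 genes was not tested.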

How the data were processed

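Read counts per gene were measured in 3 V5 ChIP, 3 wild-type ChIP and 1 input library. The deposited values are raw counts beside a gene identifier and a length in bp, per the file headers, and the submitters' processing notes name bcl2fastq, featureCounts, MACS and the build mm10. Not given in the sources used here are the aligner, the treatment of duplicates, the counting options and the strand; peaks were not analysed here. The table of all samples was used, and 25275 of 27179 identifiers matched a symbol in RefSeq GRCm38.p6, whose coordinates are printed.

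The V5 against wild-type fit used edgeR 4.0.16 (R 4.3.3): low counts removed by filterByExpr (minimum 10), scaling by TMM (0.923 to 1.04), robust glmQLFit, two-sided glmQLFTest and Benjamini-Hochberg adjustment over all tested genes. SEs were derived from the F statistic. Ratios to the input used mean CPM and, on the log2 scale, a prior count of 0.5. Intervals and floors (3 counts) cover counting error only. Alternatives were RLE factors, other filters, DESeq2 1.42.0, limma-voom (limma 3.58.1), a replicate block, other totals and prior counts, and leaving out each library. The script was tested on simulated data.

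Members and lists were chosen with earlier results of these data known. All 10 members are named; from the other lists, up to 2 members with the most counts, and for likeness 3 genes by correlation with Tie1. Angpt2, the globin genes and the sums without Flt1 and Erg, and without Tie1 and Tek as well, were chosen after their values were seen.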

Additional observations from a re-analysis of the deposited data

How the results depend on the processing

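No member was called under any of the 12 alternative fits, and adjusted p-values of Tie1 ranged from 0.435 (edgeR without V5 replicate 3) to 1.00. Tie1 could not be tested with a minimum count of 20, which moved the median log2 fold change of the members to -0.055. Over all genes, edgeR called 9 without a filter on low counts, 1 with a replicate block and 0 to 2 as single libraries were left out, and limma-voom called 1. With limma-voom the value of Tie1 was 1.34, against 2.13 with edgeR, and that of Kdr was 0.023, the opposite sign. Deviations of same-numbered libraries from their group means correlated at 0.014, 0.0056 and 0.060, and those of differently numbered libraries at -0.047 to 0.025. Whether same-numbered libraries share a batch cannot be told from such values. The block changed no member's call, with Tie1 at 1.99. It moved the SE of Flt1 from 0.48 to 0.15 and that of Erg from 0.32 to 0.18. Which members had an unadjusted p under 0.05 also changed with the fit. With limma-voom Tie1 had 0.088 and no member passed. In edgeR fits Flt1 also passed with the block (0.011). Flt1 (0.0088) and Erg (0.017) passed beside Tie1 without wild-type replicate 3, and Eng (0.027) did without V5 replicate 3. As single libraries were left out, the median over the members ranged from -0.11 to 0.13 and the number of positive members from 4 to 7. Kdr then ranged from -0.48 to 0.25, Cdh5 from -0.14 to 0.25, Pecam1 from -0.10 to 0.48, Erg from -0.52 to 0.047 and Fli1 from -0.17 to 0.088, while Tie1, Tek, Flt1, Flt4 and Eng kept their sign. The V5 to wild-type ratio of the summed CPM then ranged from 0.748 to 0.987, and it was 1.09 without Flt1 and Erg and 0.948 without Tie1 and Tek as well. In the other 111 of 119 recomputed member values, direction and side of the threshold were as reported. Counts of 4, 10 and 20 in the wild-type libraries for Tie1, and of 5 and 19 in V5 replicates 1 and 2 for Eng, limit the precision of both genes.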

Other observations

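Flt1 and Erg stood high among the most deeply covered genes in part of the libraries. The 2105 genes with at least 100 CPM in the input were ranked by their ratio to the input in each ChIP library, a choice made after the values were seen. Flt1 ranked 8 in wild-type replicate 2, 18 in V5 replicate 2 and 19 in wild-type replicate 1, but 455 in V5 replicate 1, 846 in wild-type replicate 3 and 1026 in V5 replicate 3. Erg ranked 10 and 11 in wild-type replicates 1 and 2 and 1132 in wild-type replicate 3, with 53, 154 and 242 in V5 replicates 1 to 3. Tek, the TIE2 gene, ranked between 528 and 1693 in every library. The median ratio over these genes was 0.964 to 1.04.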
